A study of Mus musculus with 10 samples.

Results

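The levels of 10 genes by which astrocytes clear glutamate, join into networks and hold the water and ion balance of nervous tissue were read from RNA-sequencing of the mouse spinal cord. The genes were chosen by symbol, as *Slc1a2*, *Slc1a3*, *Glul*, *Slc7a10*, *Aqp4*, *Slc4a4*, *Gja1*, *Gjb6*, *Aldh1l1* and *Sox9*, and all 10 were found among the 25232 genes of the authors' deposited table. The libraries came from 5 SOD1 G93A and 5 wild type (WT) female mice at 90 days of age, with no treatment named. The labels give the strain as C57BL/6, and the methods name the line B6.Cg-Tg(SOD1-G93A)1Gur/J, kept in a C57BL/6J background. The SOD1 G93A mice, a model of amyotrophic lateral sclerosis, carry many copies of a human *SOD1* gene with the G93A mutation. The controls were littermates without it. The tissue is labelled as spinal cord, and the methods name its lumbar part. No mouse carried a human *SOD1* gene without the mutation, so the mutation and the high copy number cannot be told apart in this design.

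Astrocytes take up the glutamate that neurons release, with 2 carriers that also move sodium, and turn it into glutamine, which neurons take back to make new transmitter. They couple to each other through gap junctions, which spread potassium and metabolites, and their endfeet on blood vessels hold the brain's main water channel. In the spinal cord, motor neurons are known to be sensitive to glutamate, and the glutamate carrier EAAT2, the product of *Slc1a2*, has long been studied in amyotrophic lateral sclerosis.

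The level of each gene was its base mean, the authors' mean over all 10 libraries of the counts after scaling for library size. A base mean averages SOD1 G93A and WT mice together, so the values below describe the spinal cord of both genotypes at once. They say nothing about a difference between the genotypes, for which no value or test is given here. Reads per library and the spread between mice are unknown here. The error given is therefore the counting error alone, taken from the base mean times 10 libraries, and it covers neither the mice nor the library preparation. Because a long transcript yields more fragments, levels were compared between genes per kb, that is per 1000 bases of the union of a gene's annotated exons. In RNA of whole tissue, fewer astrocytes and less RNA per astrocyte cannot be told apart.

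All 10 genes lay above the median gene, which had a base mean of 63.47 per kb among the 20358 genes ranked. Of the 10, 7 were above percentile 90 (531.9 per kb) and 2, *Glul* and *Slc1a2*, were above percentile 99 (2839 per kb). The median of the 10 was 871.3 per kb, at percentile 94.51. Together the 10 genes held 0.6362% of the sum of all base means, and *Slc1a2* and *Glul* made up 67.5% of that share. From *Glul*, the highest, to *Sox9*, the lowest, the level per kb spanned 68.2-fold. The enzymes, carriers and channels thus came above the transcription factor of the set.

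**Figure D1:**
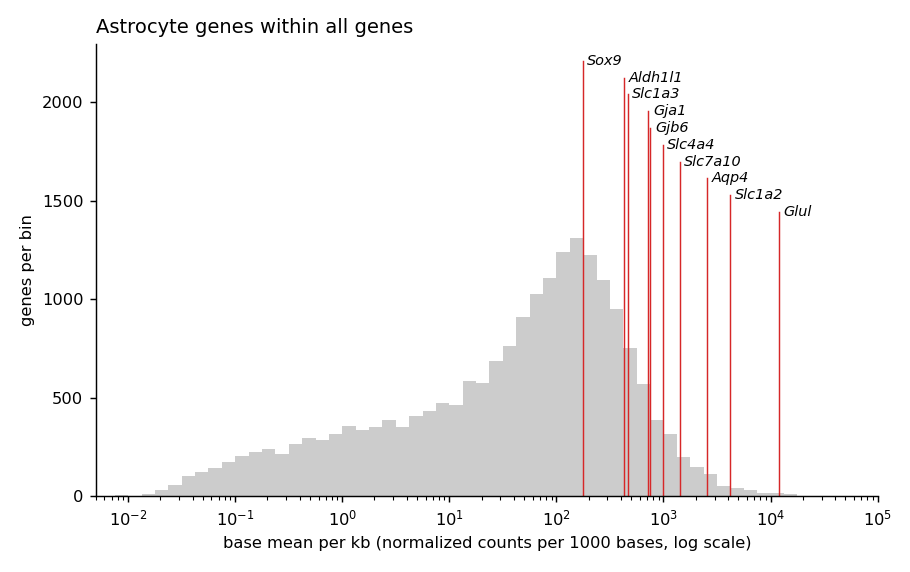
Histogram of the base mean per kb (x axis, log scale) of the 20358 genes ranked, with the number of genes per bin on the y axis, pooled over the 10 libraries. Red lines mark the 10 astrocyte genes, which all lie right of the median gene at 63.47, with *Sox9* at 176.1 nearest to it and *Glul* at 12010 farthest; the height of a line has no meaning.

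*Slc1a2* encodes EAAT2 (GLT-1), the carrier that takes up most of the glutamate released in the forebrain. It lies on the plus strand of chromosome 2 (chr2:102658659-102790784, mm10) and had a base mean of 55252, place 11 among all 25232 rows, with a counting error of 0.135%. Per kb its level was 4207, at percentile 99.42. *Slc1a3* (chr15:8634124-8710764, minus strand) encodes EAAT1 (GLAST), the carrier of radial glia and of astrocytes of the cerebellum. Its base mean was 3958.7 with a counting error of 0.503%, and its level of 463.7 per kb stood at percentile 88.25. The *Slc1a2* level was therefore 9.07-fold that of *Slc1a3* per kb of exon union, with a counting interval (95%) of 8.98 to 9.17. The choice of length moved this ratio far more than counting did, to 5.34 over the longest transcripts and 13.2 over the coding parts, and *Slc1a2* stayed the higher of the pair under each.

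The 2 mRNAs differ in make-up. The principal transcript of *Slc1a2* has 11595 bases, of which 79.8% (9250 bases) lie in the 3′ untranslated region and 1719 code for its 572 residues with the stop codon. In *Slc1a3* the 3′ untranslated region takes 48.2% of 4163 bases, and the 543 residues need a coding part of 1632 bases, close to that of *Slc1a2*. Both mRNAs code for related carriers and were 63.8% identical over the aligned coding bases. Their longest common run was only 17 bases, shown here in capitals within the coding strand, because it is the closest match between the 2 coding sequences.
*Slc1a2* (coding bases 1180 to 1196 in capitals): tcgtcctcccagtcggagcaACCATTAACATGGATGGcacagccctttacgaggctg
*Slc1a3* (coding bases 1186 to 1202 in capitals): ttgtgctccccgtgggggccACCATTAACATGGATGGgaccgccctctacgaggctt
No window of 100 bases, the length of a read, in the principal transcript of either carrier occurred in a transcript of the other. In the principal transcript of *Slc1a2* 71 of 11496 windows (0.618%) were shared with *Gm13872*, an antisense gene. *Gm13872* had a base mean of 1289 and overlaps 189 of the *Slc1a2* exon bases. The principal transcript of *Slc1a3* shared none with any gene. It has 4163 bases against 8537 in the exon union, and exons outside it were not searched.

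The other carriers of the Slc1 family were lower than *Slc1a2* under every length tried. *Slc1a4*, a carrier of alanine, serine and cysteine, was at 482.1 per kb and *Slc1a1*, the glutamate carrier EAAT3 of neurons, at 267.9. Of the windows of 100 bases of *Slc1a1*, 27.8% are shared with *4430402I18Rik*, which had a base mean of 73.8. At the low end were *Slc1a5* (25.1 per kb), a glutamine carrier, and *Slc1a7* (1.657 per kb), a carrier of the retina. The summed level per kb of the 7 Slc1 genes lay to 75.1% in *Slc1a2* and to 8.27% in *Slc1a3*. Over longest transcripts these shares were 68.8% and 12.9%, and over coding parts 85.9% and 6.48%. *Slc1a3* and *Slc1a4* could not be ordered, since *Slc1a3* was 0.962 times *Slc1a4* over the exon union and 1.85 times *Slc1a4* over the longest transcripts. Transcripts of the Slc1 family in this tissue were thus mainly those of *Slc1a2*.

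*Glul* encodes glutamine synthetase, which joins ammonia to the glutamate taken up and is confined in the central nervous system largely to glia. It lies at chr1:153899944-153909723 on the plus strand. Its base mean was 39907 (place 25, counting error 0.158%), and at 12010 per kb it was the highest of the 10 genes and place 21 among the 20358 genes ranked. In the glutamate-glutamine cycle *Glul* held 68.9% of the summed level per kb of 11 genes, against 63.6% over longest transcripts and 61.3% over coding parts. The next gene over exon unions was *Glud1*, the mitochondrial glutamate dehydrogenase, at 2173 per kb, which left *Glul* 5.53-fold higher. *Slc17a6*, the vesicular glutamate carrier VGLUT2 of spinal and brainstem neurons, was at 973.3 per kb. The lowest 2 were *Slc38a5*, a glutamine carrier, at 37.76 and *Slc17a8*, the vesicular carrier VGLUT3, at 11.29. The level of *Glul* was thus apart from those of the other genes of the cycle described here.

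*Glul* is the gene of the set with a near-identical copy elsewhere in the genome. *Glns-ps1*, a processed pseudogene at chr11:19720355-19721472 on the plus strand, was 97.8% identical to the *Glul* coding sequence over 1114 aligned bases, of which 1090 matched. The longest run shared without a difference was 143 bases, from coding base 980 to the stop codon at 1122, and it is shown because reads that lie wholly inside it have 2 places in the genome. The run ends at the last base of both compared sequences, so whether the match goes on beyond them was not examined.
*Glul* and *Glns-ps1* (shared run in capitals): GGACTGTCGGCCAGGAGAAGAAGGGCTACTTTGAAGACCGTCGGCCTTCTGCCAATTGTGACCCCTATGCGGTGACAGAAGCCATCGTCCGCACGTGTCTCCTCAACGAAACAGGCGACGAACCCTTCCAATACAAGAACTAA
The authors counted only reads with 1 place in the genome. Of the 2693 windows of 100 bases in the principal *Glul* transcript, 74 (2.75%) were shared. Of these, 57 were shared with *Glns-ps1*. The other 17 were shared with *Teddm2*, which overlaps 116 *Glul* exon bases on the opposite strand, so they are not a second place in the genome. Whether mates outside the run placed read pairs was not examined. The next gene of the set was *Slc1a2*, which *Glul* exceeded 2.85-fold over exon unions and 1.11-fold over coding parts.

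*Slc7a10* encodes Asc-1, an exchanger of small neutral amino acids that moves glycine and D-serine. Its base mean at chr7:35186385-35201114 (plus strand) was 3001.2 with a counting error of 0.577%, and its level was 1422 per kb, at percentile 97.16. It shares 377 exon bases (17.9% of its exons) with *Lrp3* on the opposite strand, which had a base mean of 2590, and 185 of its 1854 windows of 100 bases (9.98%) also occur in *Lrp3*. The kit marks strand, but the strand setting of the counting is not given in the sources used here, so part of the *Slc7a10* value may be uncertain. *Slc7a10* stood above each of the other Slc7 genes listed, of which *Slc7a8* was at 110.1 and *Slc7a11*, the cystine carrier, at 38.52 per kb. *Slc6a9*, the glycine carrier GlyT1 of glia, was at 1543 per kb, 1.09-fold the level of *Slc7a10* over exon unions, 1.48-fold over longest transcripts and 2.2-fold over coding parts. Of its windows of 100 bases 37.3% are shared, mostly with *Ccdc24*, which had a base mean of 131.5. *Slc3a2*, the heavy chain that partners Slc7 carriers, was at 838.6. *Slc7a10* and *Slc6a9* were thus the highest of these 7 genes under each length. Over coding parts the margin was small, with *Slc7a10* at 1888 per kb and *Slc6a5*, a glycine carrier named after its value was seen, at 1824. The exon bases shared with *Lrp3* leave that order uncertain. Among the 10 astrocyte genes *Slc7a10* took place 4 over exon unions and place 8 over coding parts, and its 3′ untranslated region made up 13.5% of 1953 bases.

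*Aqp4*, the water channel of the astrocyte endfoot, had a base mean of 16064 at chr18:15389496-15410982 (minus strand), with a counting error of 0.249%. Its level was 2577 per kb, at percentile 98.79 and place 3 among the 10 genes under each length. Of the 6 aquaporin genes listed *Aqp4* held 98.1% of the summed level per kb, with 97.9% over longest transcripts and 98.0% over coding parts. *Aqp11* came next at 20.64 per kb. *Aqp4* was 125-fold above it over exon unions, 94.8-fold over longest transcripts, 69.3-fold over coding parts and 61.1-fold over principal transcripts. *Aqp1*, the channel of the choroid plexus, was at 12.97 per kb and *Aqp9*, named after its value was seen, at 12.9, and *Aqp9* was the higher of the 2 over the longest transcripts and coding parts. *Aqp5* was at 2.582 and *Aqp7* at 0.1879 per kb. A single channel thus made up nearly all mRNA of the aquaporins listed, and the other 5 aquaporin genes lay below the median gene.

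The endfoot also holds the proteins that anchor *Aqp4* and the ion pumps and channels beside it. Of 10 such genes, 9 were above the median gene, with a list median of 815.4 per kb. *Atp1b2*, a sodium pump subunit of astrocytes, was at 8888 per kb. *Dtna*, a dystrobrevin, was at 200.5 and *Dmd*, dystrophin, at 53.83. *Kcnj10*, the potassium channel Kir4.1, which was singled out after its value was seen, was at 4977 per kb and 1.93-fold above *Aqp4*. *Atp1b2* and *Kcnj10* were thus above the water channel in level under each length, and *Dmd* far below it.

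*Slc4a4* encodes NBCe1, the sodium bicarbonate cotransporter by which astrocytes move bicarbonate across the membrane. It spans chr5:88886818-89239653 on the plus strand, the longest locus of the 10, and had a base mean of 10664 (counting error 0.306%) and a level of 986.0 per kb, at percentile 95.3. It was the highest of the 7 Slc4 genes listed under each length. It held 39.0% of their summed level per kb, against 38.8% over longest transcripts and 44.5% over coding parts. *Slc4a3* (438.2 per kb) and *Slc4a2* (373.0), which exchange chloride for bicarbonate, came next over exon unions and over longest transcripts, there in the opposite order, and *Slc4a8*, named after its value was seen, came next over coding parts. *Slc4a7* was at 42.81 and *Slc4a1*, the exchanger of red blood cells, at 3.863. In contrast to the aquaporins listed, the transcripts of the listed Slc4 genes were spread over several genes.

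*Gja1* and *Gjb6* encode connexin 43 and connexin 30, the main gap junction proteins of astrocytes. *Gja1* (chr10:56377330-56402513, plus strand) had a base mean of 7423.6 with a counting error of 0.367%, and *Gjb6* (chr14:57123303-57133611, minus strand) one of 2023.1 with a counting error of 0.703%. Per kb of exon union the 2 were nearly level, at 723.8 for *Gja1* and 756.6 for *Gjb6*, a ratio of 0.957 (counting interval 0.942 to 0.972). This order depended on the length. The exon union of *Gja1* has 10257 bases and its longest transcript 3889, and over longest transcripts *Gja1* was 1.99-fold and over coding parts 2.51-fold above *Gjb6*. Which of the 2 connexins has more mRNA was therefore not settled by these values.

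The 2 connexins were 67.2% identical over aligned coding bases, with a longest common run of 13 bases, shown in capitals because it is the closest match between the coding sequences.
*Gja1* (coding bases 63 to 75 in capitals): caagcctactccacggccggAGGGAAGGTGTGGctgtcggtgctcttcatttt
*Gjb6* (coding bases 60 to 72 in capitals): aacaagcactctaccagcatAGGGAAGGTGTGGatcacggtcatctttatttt
No window of 100 bases in the principal transcript of either connexin occurs in an annotated transcript of another gene. The principal transcript of *Gja1* has 3182 bases against 10257 in its exon union, and exons outside it were not searched. Of the 10 connexin genes listed, *Gja1* and *Gjb6* together held 31.5% of the summed level per kb, with 45.6% over longest transcripts and 48.6% over coding parts. *Gjb1* (connexin 32, 1168 per kb) and *Gjc3* (904.3), both known from myelinating glia, were the highest of the others. *Gjb1* was 1.61-fold above *Gja1* over exon unions and 0.659 times *Gja1* over longest transcripts, so this order was not settled either. *Gjc1* was at 21.44 and *Gja5*, a connexin of arteries, at 2.313 per kb. *Gjb2* (connexin 26), also found in astrocytes and singled out after its value was seen, was at 73.64 per kb, and *Gjb6* stood 10.3-fold above it.

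**Figure D2:**
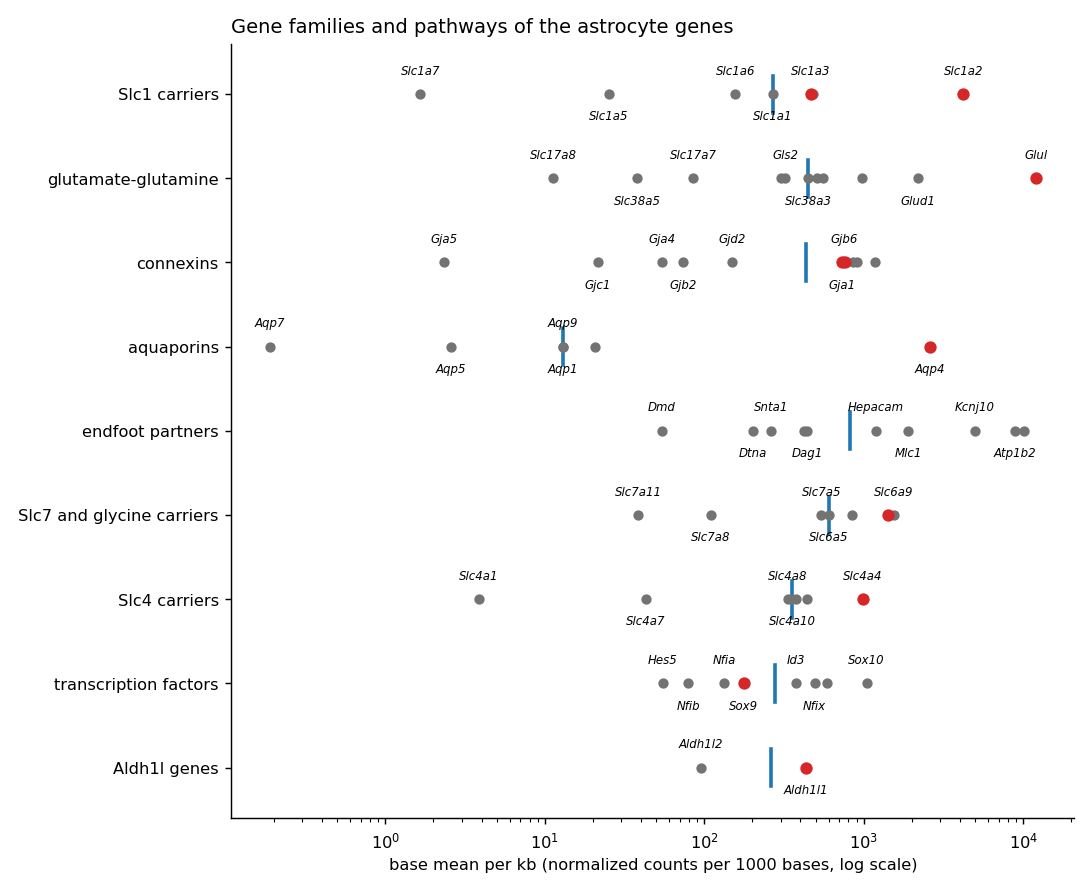
Base mean per kb of exon union (x axis, log scale) for the genes of 9 families and pathways (y axis), pooled over the 10 libraries, with the astrocyte genes described here in red, other genes in grey and the median of each list as a blue bar. Not every dot is labelled. *Aqp4* stands apart from the other 5 aquaporins, whereas *Gja1* and *Gjb6* lie among *Gjb1*, *Gjc3* and other connexins.

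*Aldh1l1* and *Sox9* serve to identify astrocytes. *Aldh1l1*, a folate enzyme, lies at chr6:90486427-90600203 on the plus strand and had a base mean of 1944.4 (counting error 0.717%), a level of 430.6 per kb and percentile 87.3. It was 4.53-fold above *Aldh1l2*, its mitochondrial relative at 95.03 per kb, over exon unions, 3.94-fold over longest transcripts and 2.79-fold over coding parts. Over exon unions it held 81.9% of the summed level of the pair. An antisense gene, *Gm15756*, covers 499 of its exon bases (11.0%), and 244 of its 4076 windows of 100 bases (5.99%) are shared with it. *Slc1a3* was 1.08-fold above *Aldh1l1* over exon unions, 1.92-fold above it over longest transcripts and 3.38-fold over coding parts, where *Slc7a10* came between the 2.

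*Sox9*, a transcription factor that specifies glia, lies at chr11:112782224-112787760 on the plus strand. It had a base mean of 728.06 with a counting error of 1.17%, and its 176.1 per kb (percentile 70.68) made it the lowest of the 10 genes under each length. *Sox10* and *Sox8*, its closest relatives and both genes of the oligodendrocyte lineage, were higher, at 1038 and 590.2 per kb. *Sox10* was 5.89-fold above *Sox9* over exon unions, 6.47-fold over longest transcripts and 4.73-fold over coding parts. Of the 8 transcription factors listed, *Nfib* was at 78.98 and *Hes5*, a target of Notch, at 54.86 per kb, both below *Sox9* over exon unions. *Hes5* was below *Sox9* under each length, whereas over coding parts *Nfib* (690.9 per kb) was above *Sox9* (478.7). *Sox9* and *Sox10* share the longest run of any pair of relatives compared, 44 bases within a coding sequence 72.2% identical, shown in capitals.
*Sox9* (coding bases 247 to 290 in capitals): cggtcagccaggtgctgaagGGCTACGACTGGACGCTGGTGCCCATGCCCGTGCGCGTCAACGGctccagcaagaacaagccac
*Sox10* (coding bases 244 to 287 in capitals): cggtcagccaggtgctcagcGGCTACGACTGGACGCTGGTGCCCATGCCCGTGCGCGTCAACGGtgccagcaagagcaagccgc
The run is shorter than a read of 100 bases, and no such window of *Sox9* occurs in another gene.

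The order of the 10 genes was stable at both ends and unstable in the middle. *Glul*, *Slc1a2* and *Aqp4* were the highest, in that order, and *Aldh1l1* and *Sox9* were last, whether levels were taken per exon union, per longest transcript or per coding part. *Gja1* moved from place 7 to place 4 with either of the other lengths. By base mean without a length, *Slc1a2* came before *Glul*.

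**Figure D3:**
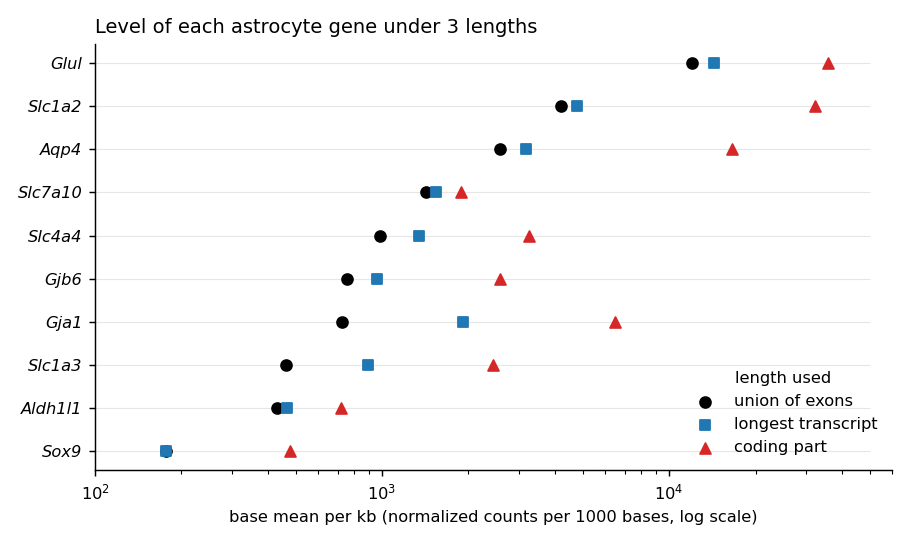
Level of each of the 10 astrocyte genes (y axis) as base mean per kb (x axis, log scale), pooled over the 10 libraries, under 3 lengths: the union of exons (black circles), the longest transcript (blue squares) and the coding part (red triangles). The counting error is smaller than the symbols. *Glul*, *Slc1a2* and *Aqp4* are highest and *Sox9* lowest under each, and the symbols of *Slc1a2* and *Gja1* spread widely while those of *Slc7a10* stay close together.

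**Figure D4:**
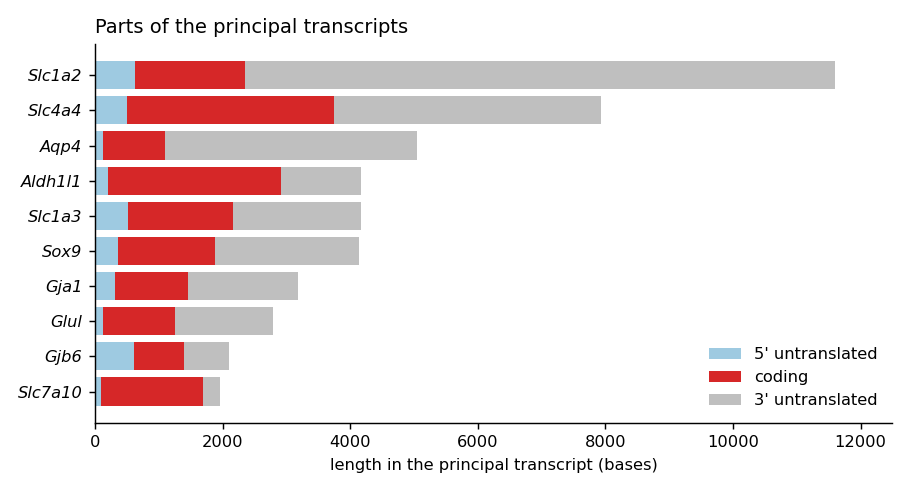
Length in bases (x axis) of the 5′ untranslated, coding and 3′ untranslated parts of the principal transcript of each gene (y axis). The 3′ untranslated part takes 79.8% of *Slc1a2* and 78.3% of *Aqp4* but 13.5% of *Slc7a10*.

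The transcripts differ in the parts that the lengths count. The 3′ untranslated region made up 79.8% of the principal transcript in *Slc1a2* and 78.3% in *Aqp4*, 54.1% in *Gja1*, 54.4% in *Sox9* and 13.5% in *Slc7a10*. The 9 genes other than *Sox9* had coding parts of 49.3% to 58.0% GC, and *Sox9* one of 64.0%. How fragments were spread along each transcript was not analysed here.

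Astrocyte markers outside the set were read beside it. Their levels describe the tissue and cannot check the label of the set. All 12 other astrocyte markers were above the median gene and 11 were above percentile 90, with a list median of 3495 per kb. They ran from *Slco1c1*, a thyroid hormone carrier shared with vessels, at 217.8 to *Gfap*, the intermediate filament of astrocytes, at 13350 per kb. The defining markers of astrocytes were thus present in the RNA, as were those of neurons, oligodendrocytes and microglia, of which each also lay above the median gene. The pooled levels do not assign the 10 genes to a cell type. None of the 10 is measured per cell, and some are also known from other cells, such as *Glul* from oligodendrocytes and *Slc7a10* from neurons.

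Other cell types of the cord were present in the same RNA. Oligodendrocyte markers had a median of 5688 per kb (*Mbp*, myelin basic protein, highest at 37740, and *Opalin* lowest at 415.0), and neuron markers one of 3890 (*Nefl*, a neurofilament, highest at 14040, and *Chat*, the enzyme of cholinergic neurons, lowest at 156.3). Of the windows of 100 bases of *Nefl*, 30.8% are shared with *Nefm*, which had a base mean of 43690. Microglia markers had a median of 218.1, with *Aif1* lowest at 72.21. The median of the 10 astrocyte genes, 871.3, took place 4 beside the 7 marker lists, after oligodendrocytes, neurons and the other astrocyte markers, and kept that place with either of the other lengths. All 10 neuron markers, *Chat* among them, were above the median gene. Cell numbers were not measured.

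**Figure D5:**
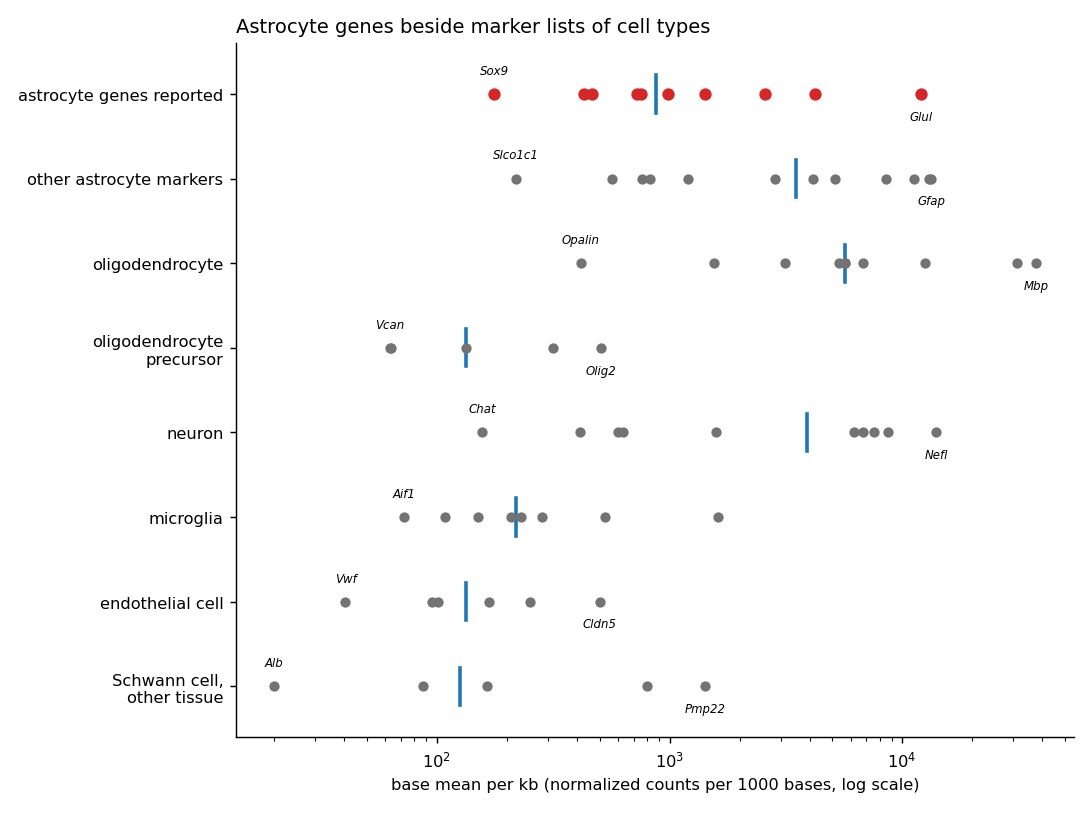
Base mean per kb of exon union (x axis, log scale) of the 10 astrocyte genes (red) and of the genes of 7 marker lists (grey), pooled over the 10 libraries, with the median of each list as a blue bar and most of the highest and lowest genes named. *Hba-a1*, listed at 0, is left out of the lowest row but counted in its median. The red genes lie above most microglia and endothelial markers, and their median of 871.3 is below those of oligodendrocytes, neurons and other astrocyte markers.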

How the data were processed

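RNA of 10 spinal cords was prepared with the TruSeq Stranded mRNA kit and sequenced as paired-end reads of 100 bases. Per the methods and the submitters' processing notes, the authors filtered reads with Fastp, aligned them to mm10 with HISAT2 2.1.0, counted uniquely mapped reads with featureCounts 2.0.2 and compared genotypes with DESeq2. The strand setting, the gene annotation and the DESeq2 version are not given in the sources used here. The deposited table holds 1 signal per gene, the base mean, which the authors made as the mean of size-factor-scaled counts over all libraries. Its other 5 columns hold the authors' own comparison of the genotypes (log2 fold change, standard error, Wald statistic, p-value and adjusted p-value) and were not used. Since no column is of a single library, no depth per library and no test between groups was computed.

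Symbols were matched to GENCODE vM21 (GRCm38, the build mm10 denotes). Of 25232, 24310 matched 1 gene, 45 matched several and 877 none. The base mean was divided by the length in kb of the union of exons, and percentiles were taken over the 20358 genes with a length and a base mean above 0. The alternatives were the longest transcript, the coding length, other sets of ranked genes, other sums and other list summaries. The principal transcript, and other lengths for shares within lists, were added after the data were seen. Counting intervals are at 95%. Windows of 100 bases were taken from the principal transcript of each gene of the set and lists. They were compared with all annotated transcripts of other genes. All counts of shared windows refer to principal transcripts, and exons outside them were not searched. Coding sequences were aligned with Biopython 1.88 (match 2, mismatch -1, gap opening -5, gap extension -1).

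Genes named were the 10 members, from each family list every other gene if at most 4 and otherwise the highest and lowest pairs per kb, and from each marker list the highest and lowest. *Kcnj10*, *Gjb2*, *Aqp9*, *Slc4a8* and *Slc6a5* were named after their values were seen. A few genes within this rule are left out of the text. Members and lists were chosen with earlier results of these data known. The division by length and the percentiles were run on simulated lengths, where the division returns its input by construction. The sequence comparisons, shares and ratios had no such test. Python 3.11.15, numpy 2.4.6, pandas 2.3.3 and matplotlib 3.10.9 were used.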

Additional observations from a re-analysis of the deposited data

How the results depend on the processing

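The length used to scale levels had the largest effect among the alternatives tried. The fold between *Glul* and *Sox9*, 68.21 over exon unions, was 81.18 over longest transcripts and over principal transcripts, the latter added after the data were seen, and 74.5 over coding parts. The median of the 10 genes, 871.3 per kb, was 1441 over longest and over principal transcripts and 2916 over coding parts. Of the 10 genes, 6 kept their place in the order over longest transcripts, 6 over principal transcripts and 7 over coding parts. The share of the 10 genes in the sum of base means was 0.6693% without the 10 genes of highest base mean, against 0.6362%. Mitochondrially encoded genes were looked for only as symbols starting with mt-. Leaving these out removed 0 rows, so the share could not move under that alternative. Above percentile 90 were 7 of the 10 genes among genes whose base mean was 10 or more and 8 with rows at 0 included. By base mean not divided by length the number was also 7, but *Gjb6* (percentile 87.21) was no longer among them and *Slc1a3* (94.81) was. Matching through synonyms added 0 genes to the lists. Of the values for single genes, lists and shares, 117 moved under an alternative and 31 did not, with the 95% counting interval as the limit for levels, 1 point for percentiles, and any change counted for lists and shares. Those 31 include the median of every list under matching through synonyms, which could not move because 0 genes were added.

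No paired analysis was possible because the table holds no values of single libraries, and for the same reason leaving out each replicate in turn was not run. The spread between mice, the depth of each library and differences between the genotypes are not given by these values.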

Other observations

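Markers of 3 further groups of cells lay lower than those of astrocytes, neurons and oligodendrocytes. The 5 markers of oligodendrocyte precursors had a median base mean of 133.4 per kb, from *Vcan*, a proteoglycan, at 62.9 to *Olig2*, a transcription factor of the lineage, at 505.0. The 6 endothelial markers had a median of 134.0 per kb, from *Vwf*, the von Willebrand factor, at 40.45 to *Cldn5*, a tight junction protein, at 501.2. Of the 6 markers of Schwann cells and other tissue, with a median of 125.1 per kb, *Pmp22*, a protein of peripheral myelin, was highest at 1418, and *Hba-a1*, a globin gene with 56.5% of its windows of 100 bases shared with *Hba-a2*, was listed at 0.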
